A study of Mus musculus with 6 samples.

Results

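The mitochondrial carriers with Slc25a names were read across liver transcriptomes of insulin-resistant (IR) mice. Members were rows of the count table whose gene name starts with Slc25a and a digit. Pseudogene names and some other genes of the family were left out. In all, 45 of the 54532 genes in the table were counted as members, which is not the whole family. Liver RNA had been sequenced from 6 male C57BL/6J mice that all received a high-fat diet (HFD) for 6 weeks from 8 weeks of age. All of them were fasted for 16 h, and 3 were then injected intraperitoneally with insulin at 0.75 units per kg (IR insulin) and 3 with bovine serum albumin (BSA), its vehicle (IR vehicle). Livers were taken 6 h later. The comparison asks how the carrier transcripts differed with insulin in this diet-induced state. Chow-fed mice were not analysed here, so no value speaks to the diet.

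Mitochondrial carriers are small membrane proteins that move metabolites, nucleotides and cofactors across the inner mitochondrial membrane, mostly by exchanging one substrate for another. They are made in the cytosol and inserted through the TIM22 import machinery. In liver they link the citric acid cycle to gluconeogenesis, ureagenesis, fatty acid oxidation and the export of citrate for lipogenesis. A few members sit elsewhere, such as Slc25a17 in peroxisomes and Slc25a46 in the outer mitochondrial membrane.

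Library totals ran from 18449986 to 21827619 counts. Vehicle replicate 2 stood apart, with 16470 genes that had a count against 18389 to 18874 in the other libraries. Hepatocyte markers were detected for 8 of 8 genes in every library, with a summed level of 61217 to 167760 CPM (counts scaled by TMM to a common library size). That sum was highest in vehicle replicate 2, where Alb alone stood at 138554 CPM. The genes split: Alb, Ttr, Cyp2e1 and Asgr1 were highest in vehicle replicate 2 and Cps1 in vehicle replicate 3. Apoa1, Tat and Hnf4a were lowest in vehicle replicate 2. Striated muscle markers summed to at most 0.0954 CPM, and Acta1, Myh1, Tnnt3 and Mb were at 0 in all libraries. Kidney markers reached 2.82 CPM in vehicle replicate 2, from Kap and Slc34a1, and at most 0.0461 CPM elsewhere. Erythroid markers summed to 1588 CPM in vehicle replicate 2 and to 312 to 627 CPM in the others, and 4 of the 5 tested passed the study's criteria in the direction lower with insulin, where 1.86% of all genes did. These criteria keep genes with a log2 fold change of 0.35 or more in size and a p, before adjustment, below 0.05. Macrophage, B cell and endothelial markers summed to 223 to 483, 77.4 to 143 and 139.7 to 259 CPM. Adipocyte markers summed to 21.7 to 280 CPM, nearly all from Cidec (11.8 to 127 CPM) and Cfd (0.143 to 154 CPM). Adipoq, Plin1 and Retn were at most 0.0866 CPM in any library, and Lep was at 0. Of the 4 B cell markers tested, 1 passed those criteria, also lower with insulin. Their part in the carrier results was not tested.

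Among the members, carrier transcripts in liver were dominated by a few genes. Per kb of the longest protein-coding transcript, Slc25a47 had the highest mean level over the 6 libraries, at 653 CPM per kb, above 99.1% of the tested genes. It was followed by the ADP/ATP carrier Slc25a5 at 297, the glutathione carrier Slc25a39 at 232 and the phosphate carrier Slc25a3 at 198 CPM per kb. The acylcarnitine carrier Slc25a20, at 90.1 CPM per kb, and the dicarboxylate carrier Slc25a10, at 83.0, came next. Slc25a3 exceeded Slc25a20 in 6 of 6 libraries, whereas Slc25a20 exceeded Slc25a10 in 4 of 6. The glutamate carrier Slc25a22 and the citrate carrier Slc25a1 both averaged 65.8 CPM per kb, and neither was above the other in more than 3 of 6 libraries. Slc25a25 (58.3) exceeded Slc25a11 (32.5) in 6 of 6 libraries. At the other end, Slc25a35 averaged 0.291 CPM per kb. In all, 24 members lay above the median level of 4.15 CPM per kb over all tested genes.

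**Figure D1:**
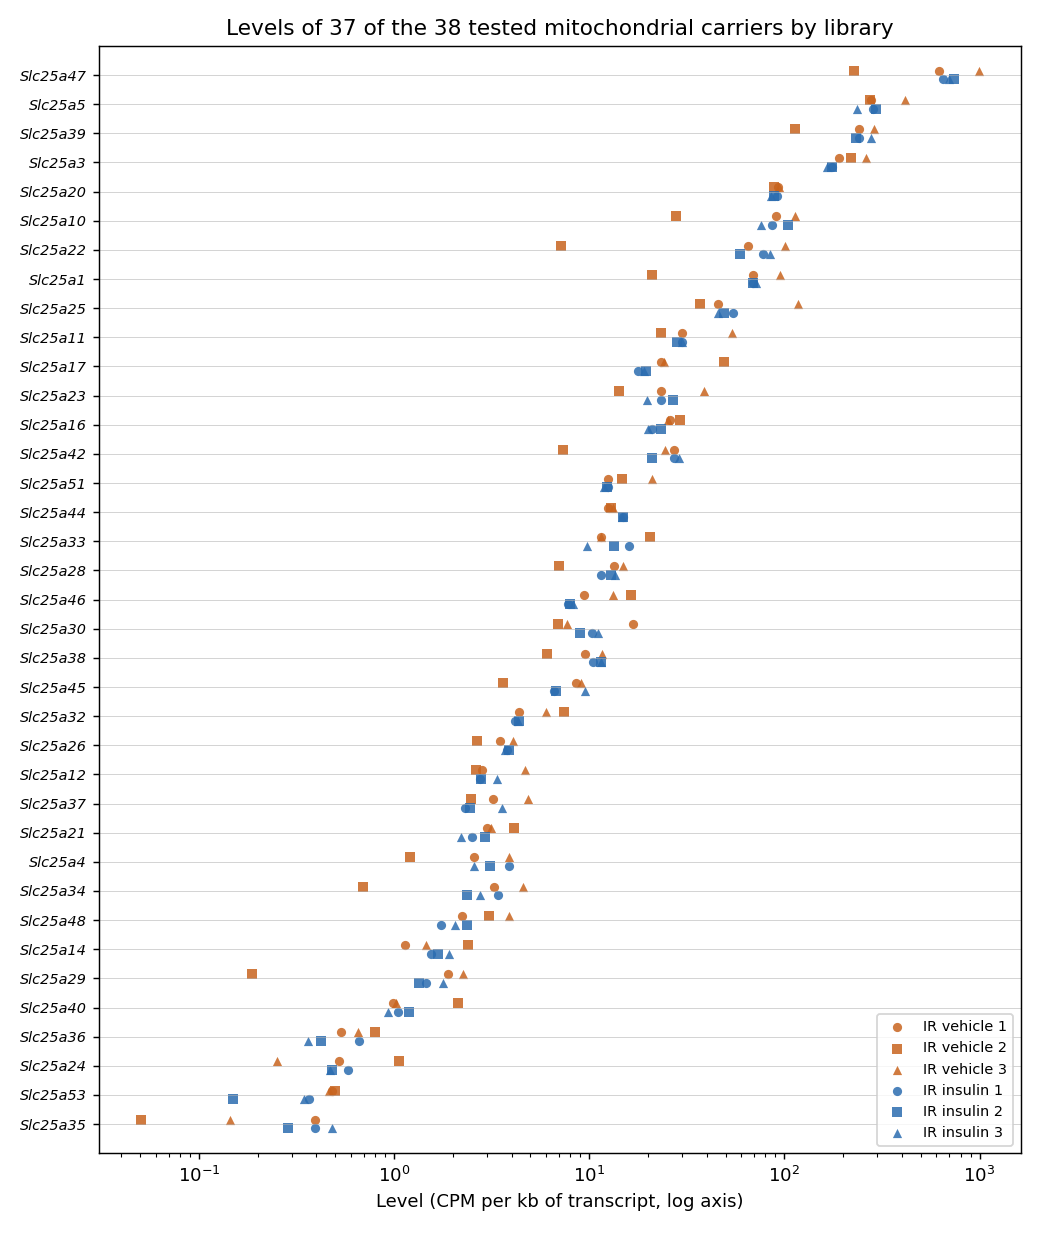
Level of 37 of the 38 tested carriers in each library, in CPM per kb of transcript on a log axis. Orange marks are IR vehicle and blue marks IR insulin mice, with circle, square and triangle for replicates 1, 2 and 3. Slc25a47 leads, and the squares of vehicle replicate 2 lie far to the left for carriers such as Slc25a22 and Slc25a29.

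Together the 45 members took 0.387%, 0.199% and 0.528% of all counts in vehicle replicates 1, 2 and 3, and 0.399%, 0.417% and 0.423% in the insulin replicates. The exact (Clopper-Pearson) 95% interval for the lowest of these was 0.197% to 0.201%, which covers counting error only. The insulin libraries lay close together and inside the range of the vehicle libraries. Slc25a47 alone made up 17.8% of the members' counts in vehicle replicate 2 and 30.9% to 35.3% in the other libraries.

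Windows of 300 bases around annotated starts (250 before to 50 after, RefSeq, GRCm38.p6) were matched for 30 of the 38 tested members, in 39 windows. They were searched on both strands for the GC box GGGCGG, the CCAAT box CCAAT, the E-box CACGTG and the cAMP response element TGACGTCA. A GC box was found in 87.2% of the carrier windows and in 35.7% of all 32851 windows. CCAAT was found in 53.9% against 37.4%, CACGTG in 12.8% against 7.15%, and TGACGTCA in 5.13% against 1.79%. The median GC content was 59.0% in the carrier windows and 52.7% in all. The carrier windows came only from tested members, whereas all windows covered 27025 genes, tested or not. The shares are therefore not like for like, and windows of tested genes alone were not compared. These matches are letters in a window and not measured sites. The windows of 3 carriers are shown, with motif matches in capitals (ATTGG and CCGCCC are CCAAT and GGGCGG on the other strand). Slc25a47 (chr12:108850879-108851178, plus strand) is the most abundant member and holds 2 CCAAT matches and no GC box. Slc25a25 (chr2:32424017-32424316, minus strand) is 1 of the 2 members with TGACGTCA, in 1 of its 3 windows. Slc25a17 (chr15:81360716-81361015, minus strand) is the tested member with the most negative fold change.
Slc25a47: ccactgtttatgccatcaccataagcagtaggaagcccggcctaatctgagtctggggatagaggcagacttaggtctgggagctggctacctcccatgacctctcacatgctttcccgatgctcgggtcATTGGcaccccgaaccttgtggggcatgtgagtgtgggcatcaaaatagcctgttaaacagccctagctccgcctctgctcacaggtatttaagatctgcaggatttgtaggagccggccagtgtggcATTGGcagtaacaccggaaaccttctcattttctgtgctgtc
Slc25a25: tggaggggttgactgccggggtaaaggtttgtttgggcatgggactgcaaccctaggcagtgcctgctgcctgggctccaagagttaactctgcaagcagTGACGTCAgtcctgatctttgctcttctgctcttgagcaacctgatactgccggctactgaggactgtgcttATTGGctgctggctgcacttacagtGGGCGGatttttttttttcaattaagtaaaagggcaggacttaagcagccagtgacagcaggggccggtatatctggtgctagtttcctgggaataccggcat
Slc25a17: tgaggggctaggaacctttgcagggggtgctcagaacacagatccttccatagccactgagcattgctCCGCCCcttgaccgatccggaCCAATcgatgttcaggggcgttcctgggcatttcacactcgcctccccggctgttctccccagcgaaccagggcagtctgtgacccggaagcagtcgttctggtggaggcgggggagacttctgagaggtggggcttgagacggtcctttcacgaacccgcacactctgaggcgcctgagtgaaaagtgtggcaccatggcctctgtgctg

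With insulin, no carrier changed at an adjusted p under 0.05. The quasi-likelihood F test of edgeR was fitted to the 13377 genes that passed a filter on low counts, 38 of the 45 carriers among them, with Benjamini-Hochberg adjustment. It called 0 carriers, as it did 0.00% of all genes, and the smallest adjusted p of a carrier was 0.852. At an unadjusted p under 0.05, edgeR gave 2 of the 38 (2.86% of all genes), DESeq2 gave 2 (3.79%) and limma-voom with quality weights gave 1 (1.59%). Neither DESeq2 nor limma-voom called a carrier after adjustment. By the study's criteria, 0 of 38 carriers were higher with insulin, where 1.0% of all genes were, and 2 of 38 were lower, where 1.86% were. The 2 were Slc25a46 and Slc25a17. Below, fold changes are log2 of IR insulin over IR vehicle ± SE, from the same fit, and levels are CPM.

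The fold changes of the 38 were spread about 0, with 16 above and 22 below (42.1% above, against 48.6% of all genes). Their median was -0.091, and that of all genes -0.017. In 23 of 38 the fold change was smaller than its SE (60.5%, against 59.5% of all genes). All values of the groups were apart for 1 carrier that was higher with insulin, Slc25a44 (background 6.25%), and for 7 that were lower, namely Slc25a3, Slc25a16, Slc25a17, Slc25a21, Slc25a46, Slc25a51 and Slc25a53 (background 6.04%). In bulk liver, fewer cells of a type and less RNA per cell cannot be told apart.

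**Figure D2:**
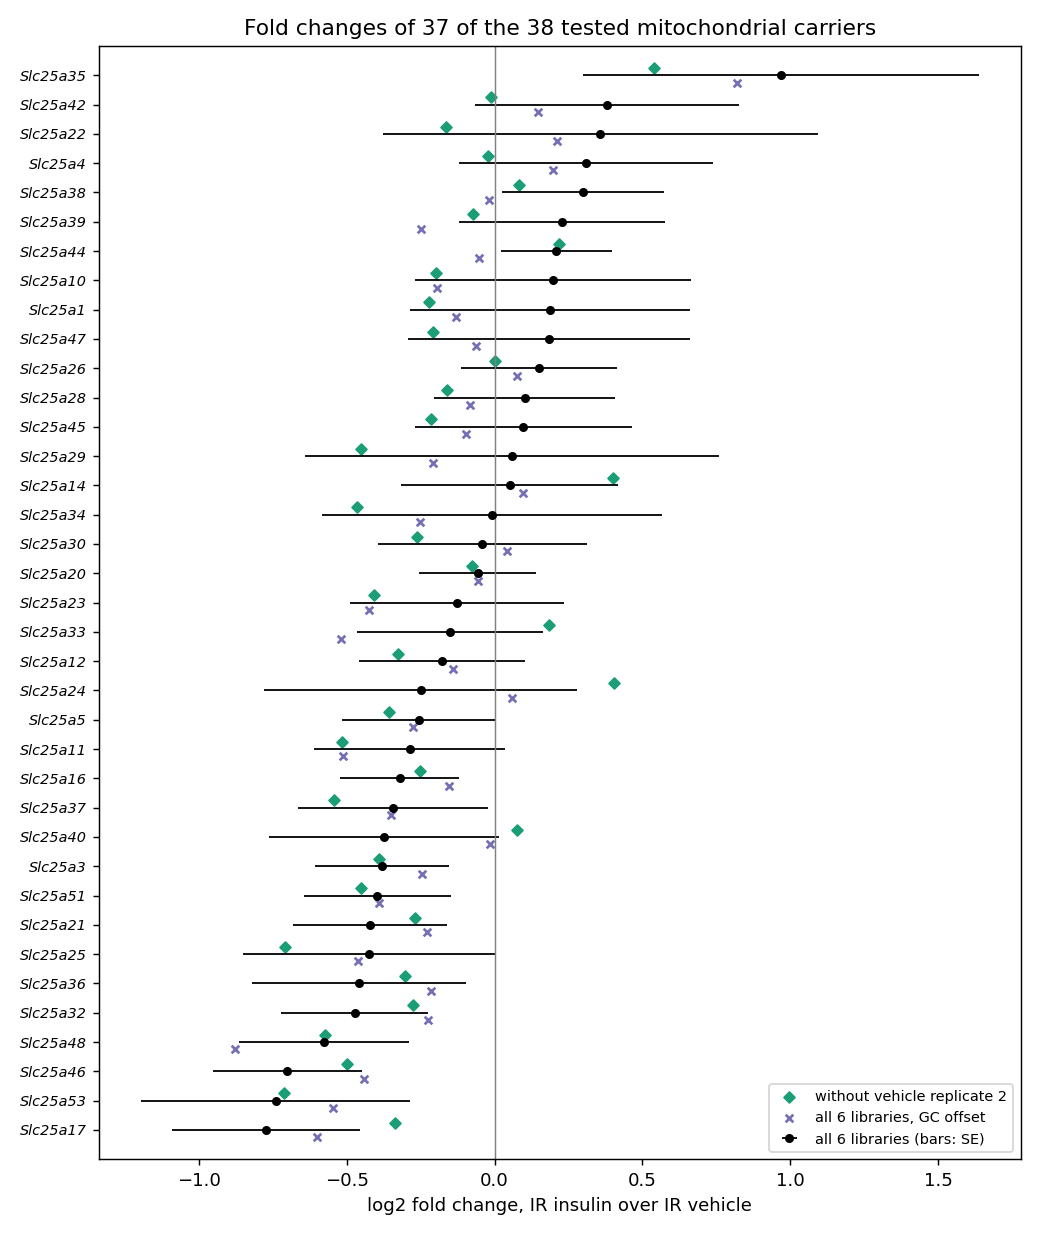
Log2 fold change of IR insulin over IR vehicle for 37 of the 38 tested carriers. Black circles with SE bars are from all 6 libraries, green diamonds leave out vehicle replicate 2, and purple crosses use all libraries with a GC offset. Most bars cross 0, and several carriers on the right of 0 lie on its left without vehicle replicate 2.

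Of the carriers of ADP, ATP and phosphate, none of the 6 tested (of 8) passed the criteria, and 5 of 6 fold changes were below 0. Slc25a5, which exchanges ADP for ATP, stood at 346, 341 and 515 CPM in vehicle replicates 1 to 3 and at 351, 364 and 292 in insulin replicates 1 to 3. The groups overlapped (-0.26 ± 0.26), with vehicle replicate 3 the highest. In the annotation 46.6% of the 50-base windows of Slc25a5 also occur in other genes, mainly its copies Gm5560 and Gm5529, so its count is uncertain. Slc25a3, which brings in phosphate for ATP synthesis, had 306, 352 and 422 CPM with vehicle and 283, 281 and 267 with insulin. All insulin values lay under all vehicle values, but the difference did not pass the test (-0.38 ± 0.23, edgeR adjusted p = 0.852). Slc25a25, a calcium-regulated ATP-Mg/Pi carrier, had 162, 131 and 414 CPM with vehicle and 192, 174 and 162 with insulin. Vehicle replicate 3 alone was high, and the fold change of -0.42 ± 0.43 became 0.26 without it. Its paralog Slc25a23 ran from 48.0 to 130.2 CPM, and Slc25a25 exceeded it 1.83 to 3.03 times per kb. Slc25a4, the heart and muscle ADP/ATP carrier, was at 2.33 to 7.49 CPM, and Slc25a5 exceeded it 73.0 to 227 times per kb. Slc25a24 stayed at 0.858 to 3.62 CPM.

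The citrate, dicarboxylate and oxoglutarate carriers supply the cytosol with citric acid cycle intermediates, and none of the 4 passed the criteria. Slc25a1, which exports citrate for fatty acid and sterol synthesis, stood at 115, 34.8 and 158 CPM with vehicle and at 116, 116 and 119 with insulin. The insulin values nearly coincided, while the vehicle values ran below and above them (0.19 ± 0.47). Slc25a10, which exchanges malate and succinate for phosphate, had 183, 56.0 and 230.1 CPM against 174, 211 and 153 (0.20 ± 0.47). Its vehicle values also ran below and above the insulin values, which lay further apart than those of Slc25a1. Slc25a11, the oxoglutarate/malate carrier of the malate-aspartate shuttle, had 51.1, 39.9 and 92.6 CPM against 51.4, 48.1 and 51.1. Its groups overlapped (-0.29 ± 0.32). Without vehicle replicate 2 the fold changes were -0.22 for Slc25a1 and -0.20 for Slc25a10. Per kb, the ratio of Slc25a1 to Slc25a11 was 0.896 in vehicle replicate 2 and 1.75 to 2.47 in the other libraries. The oxoadipate carrier Slc25a21 was low, at 5.77 to 10.7 CPM, and its groups did not overlap, with the insulin values the lower (-0.42 ± 0.26), but the difference did not pass the test.

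None of the 5 amino acid carriers tested (of 7) passed the criteria. The glutamate carrier Slc25a22 varied widely between mice, with 184, 20.2 and 283 CPM in the vehicle group and 219, 167 and 237 in the insulin group. Vehicle replicate 2 was far below all others, and the fold change of 0.36 ± 0.73 became -0.16 without it. Slc25a44, a carrier of branched-chain amino acids, was the steadiest of the separated carriers, with 44.6, 46.3 and 47.2 CPM against 53.5, 53.2 and 53.0. Each insulin value was above each vehicle value, by a small amount (0.21 ± 0.19, edgeR adjusted p = 0.852). With a GC offset, its fold change was -0.053. Slc25a38, which carries glycine for haem synthesis, had 17.0, 10.9 and 20.7 CPM against 18.7, 20.5 and 20.6, with vehicle replicate 2 the lowest (0.30 ± 0.27). Slc25a12, an aspartate/glutamate carrier, ran from 16.7 to 29.7 CPM and Slc25a29, a basic amino acid carrier, from 0.368 to 4.48. Per kb, Slc25a22 exceeded Slc25a12 by 2.73 times in vehicle replicate 2 and by 21.2 to 28.2 times elsewhere.

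All 10 carriers of acylcarnitines, cofactors and nucleotides were tested, and 1, Slc25a17, passed the criteria. Slc25a17 (chromosome 15), which carries coenzyme A, FAD and NAD across the peroxisomal membrane, stood at 40.4, 84.2 and 41.6 CPM with vehicle and at 30.7, 33.8 and 32.8 with insulin. Every insulin value was below every vehicle value, and vehicle replicate 2 was far above the other vehicle mice. The fold change was -0.77 ± 0.32 (edgeR adjusted p = 0.852). Without vehicle replicate 2 it was -0.34, just under the size of 0.35 that the criteria ask for. Slc25a20, which takes acylcarnitines in for beta-oxidation, was even across mice, with 166, 158 and 167 CPM against 163, 158 and 152. The groups overlapped, and the fold change was -0.06 ± 0.20. Slc25a16, linked to coenzyme A in mitochondria, had 81.6, 91.5 and 79.4 CPM against 66.2, 73.3 and 62.7. These groups did not overlap (-0.32 ± 0.20), and the difference did not pass the test. The NAD carrier Slc25a51 stood at 55.7 to 93.4 CPM with vehicle and 53.0 to 55.2 with insulin, also without overlap and without passing the test (-0.40 ± 0.25).

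The coenzyme A carrier Slc25a42 was at 23.6 CPM in vehicle replicate 2 and at 67.1 to 91.7 elsewhere, and its ratio to Slc25a16 per kb was 0.253 there and 0.902 to 1.44 elsewhere. Slc25a32, which carries folate or FAD, ran from 24.5 to 44.0 CPM and was highest in vehicle replicate 2. The pyrimidine nucleotide carrier Slc25a33 ran from 18.4 to 38.6 CPM and its paralog Slc25a36 from 1.89 to 4.17, a ratio of 17.4 to 31.7 per kb. The S-adenosylmethionine carrier Slc25a26 was at 5.10 to 7.82 CPM. Of the windows of Slc25a33 and Slc25a36, 12.6% and 11.8% also occur in other genes.

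None of the 4 iron and glutathione carriers passed the criteria. Slc25a39, which carries glutathione into mitochondria, had 405, 192 and 482 CPM with vehicle and 406, 390.5 and 468 with insulin. Vehicle replicate 2 was again lowest and the groups overlapped (0.23 ± 0.35). Its paralog Slc25a40 ran from 2.58 to 5.89 CPM and was highest in that library. The ratio of Slc25a39 to Slc25a40 per kb was 53.9 in vehicle replicate 2 and 194 to 299.6 elsewhere. The iron carriers mitoferrin 2, Slc25a28, with 20.5, 10.7 and 23.0 CPM against 17.6, 19.9 and 20.8, and mitoferrin 1, Slc25a37, with 13.4, 10.3 and 20.3 against 9.59, 10.2 and 14.9, had fold changes of 0.10 ± 0.31 and -0.34 ± 0.32.

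Of the 3 brain uncoupling-like carriers, 2 were tested and none passed the criteria. Slc25a30 had 59.9, 24.9 and 27.7 CPM with vehicle and 37.1, 32.1 and 39.9 with insulin, with vehicle replicate 1 high and the insulin values between (-0.04 ± 0.35). Slc25a14 had 2.06, 4.3 and 2.62 CPM against 2.79, 3.03 and 3.46 (0.05 ± 0.37). Slc25a27 was not kept by the filter, with counts of 2, 0 and 11 with vehicle and 11, 5 and 1 with insulin.

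Among the 9 carriers of the outer membrane or with a substrate that is not settled, 7 were tested and 1 passed the criteria. Slc25a47, found mainly in liver, stood at 1167, 429 and 1869.6 CPM with vehicle and at 1223, 1390.5 and 1324 with insulin. The vehicle mice spanned the insulin mice on both sides (0.18 ± 0.48), and without vehicle replicate 2 the fold change was -0.21. Slc25a46, an outer membrane protein that takes part in mitochondrial dynamics, had 41.3, 71.9 and 58.1 CPM against 34.2, 35.0 and 36.3. All insulin values lay below all vehicle values. The fold change was -0.70 ± 0.25 (edgeR adjusted p = 0.852), and without vehicle replicate 2 it was -0.50, still past the criteria. A gene on the opposite strand, B930094E09Rik, holds 7.52% of its windows, and its reads cannot be told apart if counting ignored strand. Slc25a45 had 22.3, 9.39 and 23.6 CPM against 17.1, 17.5 and 24.7 (0.10 ± 0.37), with the groups overlapping. Slc25a48 ran from 5.90 to 13.1 CPM, Slc25a34 from 1.84 to 12.3, Slc25a53 from 0.476 to 1.60 and Slc25a35 from 0.184 to 1.75. The groups of Slc25a53 did not overlap, with the insulin values the lower, but it did not pass the test (-0.74 ± 0.45).

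**Figure D3:**
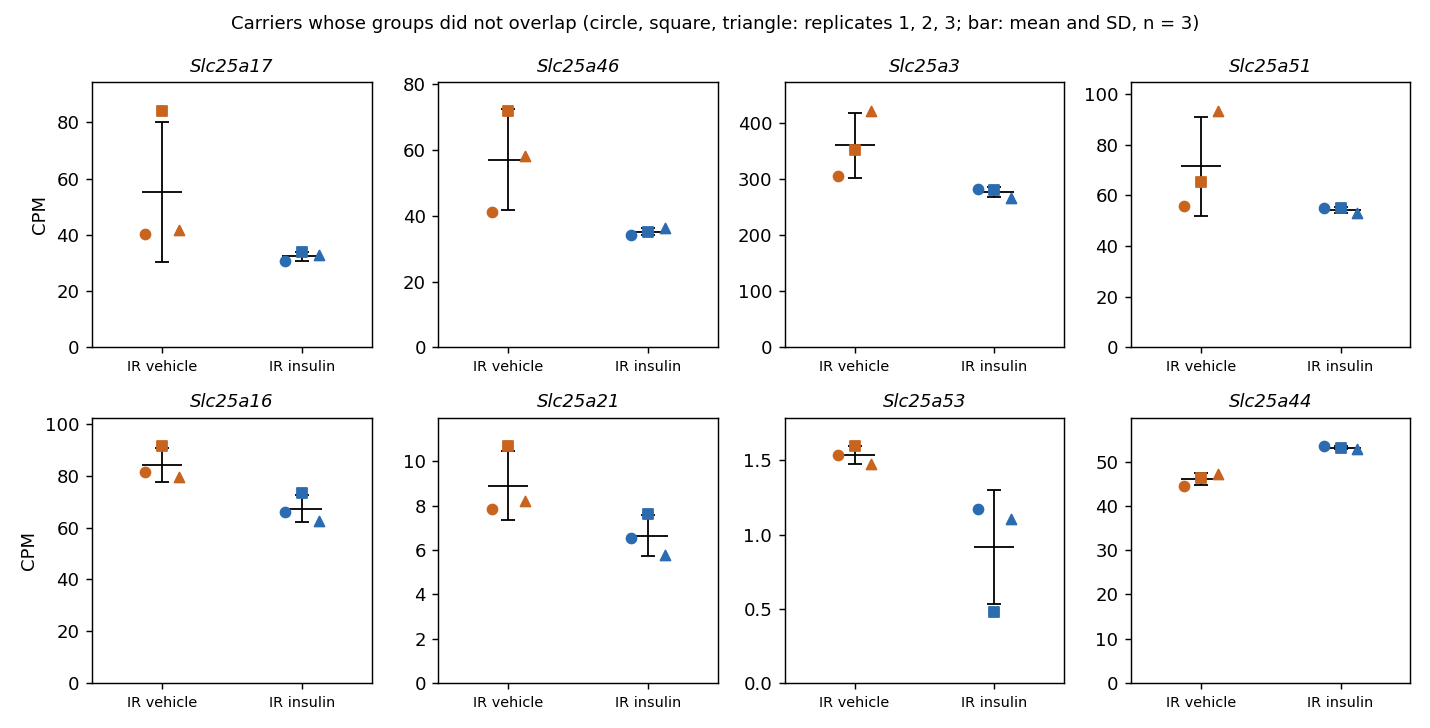
CPM of the 8 carriers whose groups did not overlap, with axes that start at 0. Points are mice (circle, square and triangle for replicates 1, 2 and 3), and bars are the mean and SD of 3 mice. The insulin mice lie close together for Slc25a17, Slc25a46 and Slc25a44, while the vehicle mice of Slc25a17 and Slc25a46 are spread.

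Whether Slc25a17 and Slc25a46 passed the criteria changed with the libraries used. Without insulin replicates 1, 2 and 3 in turn, the fold changes stayed at -0.73, -0.80 and -0.77 for Slc25a17. For Slc25a46 they stayed at -0.68, -0.70 and -0.71. Slc25a46 passed without any 1 of the vehicle replicates, and Slc25a17 passed without vehicle replicate 1 or 3. Without any 1 of the 3 insulin replicates, 0 of the 38 carriers passed the criteria, where 0.673%, 0.957% and 0.852% of all genes did in edgeR without insulin replicates 1, 2 and 3, and 0 carriers had an unadjusted p under 0.05. Without vehicle replicate 2 only Slc25a46 passed, where 3.60% of all genes did. Without vehicle replicate 1, 6 carriers passed, where 9.89% of all genes did. Among them were Slc25a35, higher with insulin, and Slc25a17, Slc25a32, Slc25a46 and Slc25a48, lower. Slc25a35 had counts of only 3 and 11 in vehicle replicates 2 and 3. Of its windows, 25.8% also occur in Rangrf on the opposite strand, so its count is uncertain. With the GC offset Slc25a17 (-0.60) and Slc25a48 (-0.88) passed, where 3.55% of all genes did, and Slc25a46 did not (-0.44).

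The other carriers counted as not kept by the filter were near 0. Slc25a43 had counts of 0, 0 and 3 against 4, 1 and 0. The testis ADP/ATP carrier Slc25a31 had 0, 4 and 1 against 2, 4 and 3. Slc25a2, an ornithine carrier, had 3, 0 and 2 against 0, 0 and 2. The glutamate carrier Slc25a18 had 1 count with vehicle and 3 with insulin, Slc25a41 had 1 in all, and Slc25a54 had none.

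The vehicle mice differed from one another in their carriers more than the insulin mice did. The SD of log2 CPM was larger in the vehicle group for 34 of 38 carriers (89.5%, against 85.2% of all genes), with a median of 0.593 in vehicle and 0.157 in insulin mice. Vehicle replicate 2 was the lowest library for 20 carriers (52.6%, against 37.4% of all genes) and the highest for 11 (28.9%, against 35.8%). Vehicle replicate 3 was the highest for 21 (55.3%, against 23.4%) and the lowest for 1. Set against the median of the other 5 libraries, the median carrier stood at -0.36 (log2) in vehicle replicate 2 and at 0.36 in vehicle replicate 3, where the median gene stood at -0.021 and -0.003.

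In vehicle replicate 2 the deviation of a carrier went with the GC content of its transcript. Across the 38 carriers, which share that library, Spearman's correlation was -0.81, with -0.68 across all genes that had a GC value. Of the 19 carriers of higher GC content (53.2% to 60.9%), 17 lay below the other libraries there, by a median of -1.24 (log2), with Slc25a22 at -3.43 and Slc25a29 at -2.95. Of the 19 of lower GC content (39.7% to 51.8%), 12 lay above them, with Slc25a17 at 1.32 and Slc25a24 at 1.09. The fold changes followed, being above 0 for 13 of the 19 of higher GC content and for 3 of the 19 of lower GC content. The same correlation between fold change and GC content was 0.66 with all libraries and 0.085 without vehicle replicate 2. With the GC offset it was 0.095, but the offset takes out a trend with GC content by design, so a low value there follows from the method. The deviations in vehicle replicates 3 and 1 correlated with GC content at 0.20 and -0.051.

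**Figure D4:**
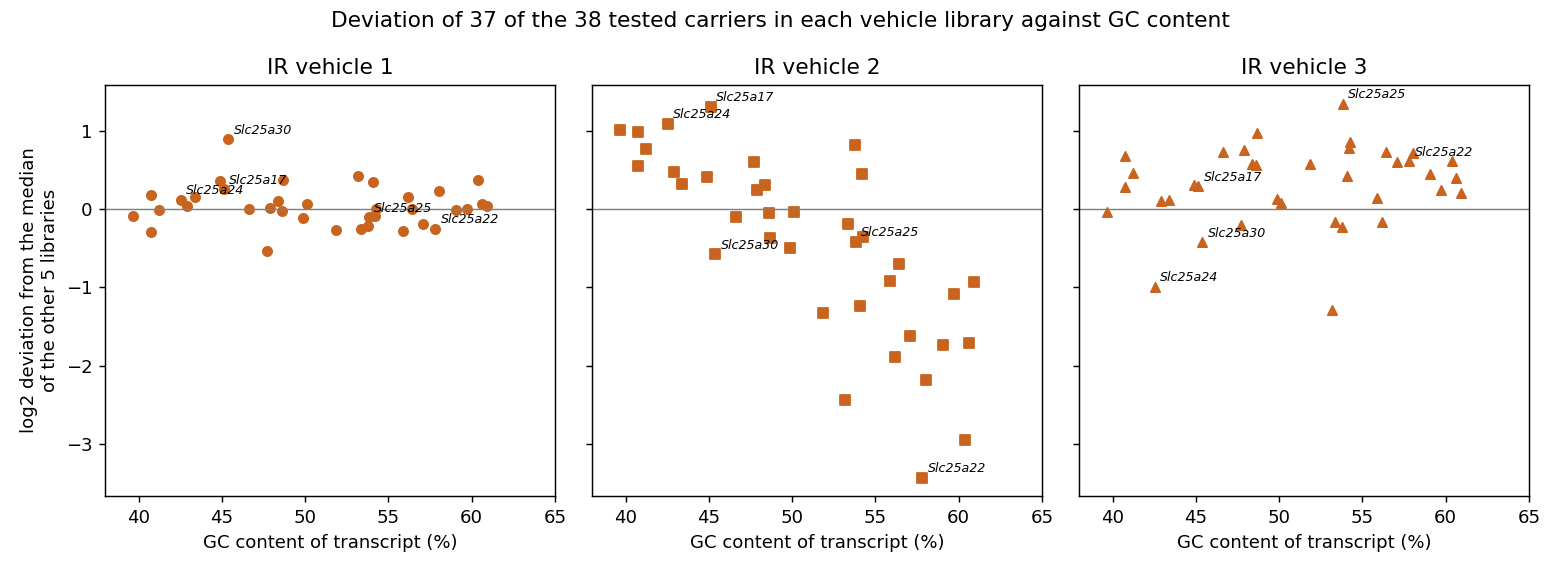
Log2 deviation of 37 of the 38 tested carriers from the median of the other 5 libraries, against the GC content of its transcript in percent, with 1 panel per IR vehicle library. Vehicle replicate 2 falls from above 0 at low GC content to -3.43 for Slc25a22, while most points of vehicle replicate 3 lie above 0.

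The direction of the members as a whole rested on the vehicle libraries. Without vehicle replicate 2, 29 of 38 fold changes were below 0 with a median of -0.24, where the median of all genes was 0.012. With the GC offset, 29 of 38 were below 0 with a median of -0.17 (all genes -0.064). Without vehicle replicate 3, 20 of 38 were above 0 with a median of 0.14 (all genes 0.024). In vehicle replicates 1, 2 and 3 the carriers summed to 3779, 2407 and 5439 CPM, and in the insulin replicates to 3823, 3942 and 3869 CPM.

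Genes that work with the carriers were read from 3 lists in the same fit. Of the 12 tested mitochondrial transporters without an Slc25a name, 2 passed the criteria, both lower with insulin (background 1.86%), and the list's median fold change was -0.47. Sfxn1, which carries serine into mitochondria, had 82.6, 165 and 128 CPM against 70.5, 68.4 and 66.6 (-0.87 ± 0.28, edgeR adjusted p = 0.852), with no overlap. Mpc1, a subunit of the mitochondrial pyruvate carrier, had 44.2, 65.9 and 44.5 against 35.9, 38.1 and 29.3 (-0.58 ± 0.25), also with no overlap. Its partner Mpc2 had 138, 448 and 219 against 138, 153 and 127 (-0.95 ± 0.41), which narrowly missed the criteria. All 3 were highest in vehicle replicate 2. Without that library 1 gene of the list passed (3.60% of all genes), without vehicle replicate 1 there were 8 (9.89%) and without vehicle replicate 3 there were 4 (6.55%). Without insulin replicate 1 there was 1 (0.673%), and without insulin replicate 2 or 3 there were 0 (0.957% and 0.852%).

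The 12 genes of carrier import held none that passed in edgeR or DESeq2 (median -0.14). When any single vehicle library was left out 1 passed, where 9.89%, 3.60% and 6.55% of all genes did without vehicle replicates 1, 2 and 3. The smallest p belonged to the receptors Tomm20 (-0.49 ± 0.27) and Tomm70a (-0.50 ± 0.32), and Tomm70a stood at 345 CPM in vehicle replicate 2 and 149 to 191 elsewhere. Among the 20 enzymes tested that use or supply carried substrates, none passed in edgeR (median -0.15), while DESeq2 gave 2, where it gave 3.79% of all genes. The GC offset, the replicate block and both together gave 1 each, where they gave 3.55%, 2.40% and 2.50% of all genes. Leaving out single libraries gave 0 to 2, where it gave 0.673% to 9.89% of all genes. Glud1, which forms oxoglutarate from glutamate, had 928, 1326 and 1105 CPM against 666, 835 and 745 (-0.58 ± 0.26). Cytosolic malate dehydrogenase, Mdh1, had 657, 950.3 and 829.8 CPM against 574, 597 and 452 (-0.59 ± 0.26). In both, each insulin value was below each vehicle value.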

How the data were processed

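RNA was measured in liver, 1 library per mouse and 3 mice per group, grouped by the treatment in the labels. The deposited table held raw read counts per gene, as the authors made them, with no normalization or pooling. The authors aligned the reads with Bowtie2 2.2.3 to mm10. The counting program, annotation and use of strand are not given in the sources used here, so counts of overlapping genes and of genes with near-identical copies are uncertain. Coordinates, lengths and GC content came from GENCODE M21 (GRCm38), where all 45 members were matched, and 23 overlap another gene.

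Counts were filtered (filterByExpr, minimum count 10, minimum total 15), scaled by TMM and tested with edgeR 4.0.16 (R 4.3.3), with no covariate and Benjamini-Hochberg adjustment over 13377 genes. SE is the absolute log2 fold change over the square root of F. A deviation is log2 CPM (prior count 2) minus the median of the other 5 libraries. The GC offset is a loess curve (span 0.5) per library on the GC content of the longest transcript of any type. The GC content of transcripts given elsewhere is that of the longest protein-coding transcript, where a gene had any. The procedure was tested on simulated data. P-values measure the spread between these mice, with a biological coefficient of variation of 0.357, and an exact permutation test of 3 against 3 mice could not pass 0.05. The counts carry no molecular identifiers and so are not independent molecules.

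Alternatives were other size factors, no filter, DESeq2 1.42.0 (the authors' tool), voom with quality weights (limma 3.58.1), the GC offset, a replicate block, and leaving out each library. Members and lists were chosen with earlier results of these data known. Named with all 6 values are the 3 members per role with the highest level per kb and those with an unadjusted p under 0.05. Other members are named with their range, and from linked lists those past the criteria and the 2 with the smallest p. Carriers described as not overlapping, and ratios of paralogs, were chosen after values were seen. Some genes of the family are not reported by name here, namely 1 of the tested members and genes left out of the members.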

Additional observations from a re-analysis of the deposited data

How the results depend on the processing

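No carrier passed an adjusted p of 0.05 under any of the 14 alternatives, the smallest adjusted p of a carrier being 0.481, without vehicle replicate 1. The number of carriers past the study's criteria was 2 with all libraries, 1 under voom with quality weights, 1 with the replicate block, and 0 to 6 when a library was left out, the cause of which was not tested. Over all genes that number was 383, against 213 under voom, 742 with no filter on low counts, 1323, 481 and 876 when vehicle replicate 1, 2 or 3 was left out, and 90, 128 and 114 when insulin replicate 1, 2 or 3 was. Fold changes of the other sign than with edgeR on all libraries were found for 6 of 38 carriers under voom, 11 with the GC offset, 2 with the replicate block and 11 with block and GC offset. Those among the 20 given with all values follow. Under voom, they turned to -0.23 for Slc25a45 and -0.088 for Slc25a28. With the GC offset they turned to -0.064 for Slc25a47, -0.25 for Slc25a39, -0.19 for Slc25a10, -0.13 for Slc25a1, -0.053 for Slc25a44, 0.042 for Slc25a30, -0.018 for Slc25a38, -0.097 for Slc25a45 and -0.085 for Slc25a28. With the replicate block and GC offset together they were -0.012, -0.25, -0.21, -0.098, -0.027, 0.18, -0.019, -0.085 and -0.075 for the same genes in that order, and with the replicate block alone Slc25a30 was at 0.073. No pairing by replicate number was seen: the deviations of same-numbered mice correlated at -0.039, 0.069 and 0.017. Those of mice with unlike numbers correlated at -0.11 to 0.089. With so few mice these values cannot exclude pairing. With the block, Slc25a17 was at -0.68 and no longer past the criteria, while Slc25a46 was at -0.66 and still past them.

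Leaving out single libraries moved fold changes across 0 for 20 of the 38 tested carriers, 11 of them among the 20 tested carriers given with all values, over -0.22 to 0.64 for Slc25a1, -0.20 to 0.59 for Slc25a10, -0.51 to 0.14 for Slc25a11, -0.16 to 0.40 for Slc25a14, -0.16 to 1.02 for Slc25a22, -0.71 to 0.26 for Slc25a25, -0.16 to 0.31 for Slc25a28, -0.26 to 0.47 for Slc25a30, -0.072 to 0.50 for Slc25a39, -0.22 to 0.31 for Slc25a45 and -0.21 to 0.72 for Slc25a47. It kept those of Slc25a17 between -0.96 and -0.34 and those of Slc25a46 between -0.89 and -0.50. The spread between 3 mice, not counting error, limits the abundant carriers. For those lowest in level, such as Slc25a24 and Slc25a35, counting error adds to it.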
